A study of Mus musculus with 4 samples.

Results

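The Slc25 family of mitochondrial carriers was followed in ribosome-protected fragments (RPFs) of mouse leptotene/zygotene spermatocytes. Its members were taken as every gene of the deposited table whose symbol begins with *Slc25a* and a number, which gave 35 of the 11598 genes. Ribo-seq reads out the stretches of mRNA covered by ribosomes, which survive digestion with RNase I. The 4 libraries came from spermatocytes sorted by FACS from the testes of 12 dpp mice on a C57BL/6J background. In the 2 *Eef1g*-cKO libraries, *Stra8*-GFPCre, which is active in male germ cells as they approach meiosis, had deleted exons 2 to 7 of *Eef1g*, a subunit of the elongation factor that delivers aminoacyl-tRNA to the ribosome. The 2 control libraries came from littermates whose genotype the labels give as wild type. The sources used here do not say whether controls carried the Cre, how many animals went into a library or whether replicates were separate animals, so p-values measure only the spread between these libraries.

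Slc25 proteins carry nucleotides, phosphate, amino acids, carboxylic acids and cofactors across the inner mitochondrial membrane, and a few members sit in the peroxisomal or outer mitochondrial membrane. They are made on cytosolic ribosomes and reach the inner membrane through the TOM channel, the small TIM chaperones and the TIM22 complex. Male germ cells have their own ADP/ATP carrier, *Slc25a31* (ANT4), an autosomal gene needed for meiosis, while the widely expressed *Slc25a5* (ANT2) lies on the X chromosome, which is silenced in pachytene spermatocytes.

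Depth differed between genotypes. The libraries held 2479504 and 1384282 reads in control, beside 223906 and 407979 in *Eef1g*-cKO, and the 35 carriers had 2801 and 1647 of these reads in control, beside 337 and 658 in *Eef1g*-cKO. The deleted gene *Eef1g* had 107 and 58 reads in control, beside 0 and 4 in *Eef1g*-cKO, which fits the labels. Summed FPKM (reads per kilobase of gene per 1000000 reads) of 10 spermatocyte markers was 2064 and 1668 in control, beside 4406 and 3950 in *Eef1g*-cKO. Spermatocyte markers were thus read in both genotypes, but their sum does not tell the stage or the purity of the cells. For 7 spermatogonia markers the summed FPKM was 1449 and 1720 in control, beside 240 and 223 in *Eef1g*-cKO. For the 6 of 7 Sertoli cell markers in the table it was 520 and 115 in control, beside 109 and 72.1 in *Eef1g*-cKO, with *Gata4* at 0 reads in *Eef1g*-cKO. Summed FPKM was at most 5.82 in any library for 3 of 5 Leydig cell markers and between 20.8 and 43.8 for 3 of 5 peritubular markers, and the table held none of 4 macrophage or 5 red blood cell markers. The 2 of 5 spermatid markers in the table summed to 3.79 and 52.7 FPKM in control, beside 0 and 11.5 in *Eef1g*-cKO, so the control libraries differed from each other. In such bulk libraries, fewer cells of a type and less RNA per cell cannot be told apart.

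In control, the reads of the family were concentrated on 3 genes. *Slc25a31*, *Slc25a3* and *Slc25a17* held 61.9% and 62.4% of the reads of all 35 carriers in the control libraries, beside 64.4% and 67.9% in the *Eef1g*-cKO libraries. *Slc25a31* alone held 34.0% (95% exact binomial interval, 32.2 to 35.8) and 36.1% (33.7 to 38.4) in control and 43.6% (38.3 to 49.1) and 46.8% (42.9 to 50.7) in *Eef1g*-cKO. Such intervals hold only the error of counting, because copies made by PCR cannot be recognised. The first place of *Slc25a31* did not depend on the length used: per kilobase of coding sequence the control mean was 423 reads per 1000000 for *Slc25a31*, 198 for *Slc25a3*, the phosphate carrier, 110 for *Slc25a17*, the peroxisomal carrier of coenzyme A and related cofactors, 40.2 for *Slc25a28* (mitoferrin 2), an iron carrier, and 38.4 for *Slc25a25*, a carrier that exchanges ATP-Mg for phosphate. By FPKM, which divides by the deposited gene length (4238 bases for *Slc25a25*, beside 1542 coding bases), *Slc25a25* came only in place 9 and *Slc25a4* (ANT1) in place 5. Below these genes the control means ran down to 0.856 FPKM for *Slc25a36*, a pyrimidine nucleotide carrier.

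**Figure D1:**
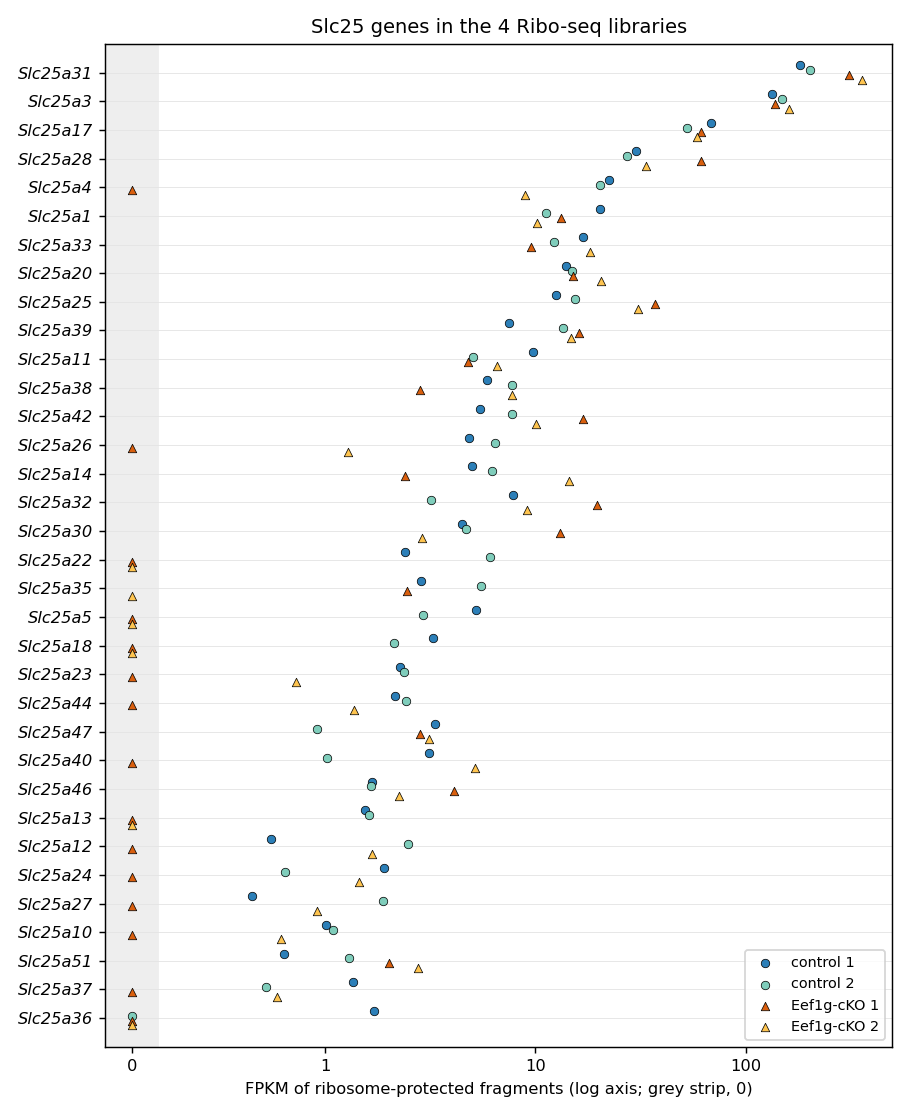
FPKM of 34 Slc25 genes in the 4 libraries, ordered by the control mean, on a log axis with values of 0 in the grey strip; circles are control libraries and triangles *Eef1g*-cKO libraries. *Slc25a31*, *Slc25a3* and *Slc25a17* stand at the top, and 15 genes have no read in *Eef1g*-cKO replicate 1 and 6 have none in replicate 2.

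Across the family, the 35 carriers together took 1130 and 1190 of every 1000000 reads in control, beside 1505 and 1613 in *Eef1g*-cKO, so that the genotypes did not overlap. The ratio of the means was 1.34. Without *Slc25a31* the values were 746 and 761 in control, beside 849 and 858 in *Eef1g*-cKO, a ratio of 1.13. The sum therefore rested largely on *Slc25a31*, and single members lay on both sides of it.

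Genotypes were compared with limma on log2(FPKM + 1), for the 10475 genes that averaged 1 FPKM or more. A call needed p under 0.05 together with a log2 fold change above 1 or below -1. Of the 35 carriers 29 passed this filter. *Slc25a10*, *Slc25a13*, *Slc25a24*, *Slc25a27*, *Slc25a36* and *Slc25a37* did not, and *Slc25a5*, *Slc25a12*, *Slc25a18*, *Slc25a22*, *Slc25a23*, *Slc25a26* and *Slc25a44*, with *Eef1g*-cKO means under 1 FPKM, passed only through their control values, which favours changes below 0 among them. In the other direction, *Slc25a51*, at 0.969 FPKM in control and 2.39 in *Eef1g*-cKO, passed only through *Eef1g*-cKO, which favours a change above 0. By Benjamini-Hochberg adjusted p, limma called 0 carriers increased, where 2.87% of all tested genes were increased, and 0 decreased, where 4.97% were. By unadjusted p it called 1 increased, *Slc25a25* (7.32% of all tested genes), and 5 decreased, *Slc25a4*, *Slc25a5*, *Slc25a18*, *Slc25a22* and *Slc25a26* (16.3% of all tested genes). On the reads themselves, edgeR's quasi-likelihood test kept 16 carriers and called 1 of them increased by adjusted p, again *Slc25a25* (8.75% of the 8056 genes it tested), and 0 decreased (11.2%), with 1 decreased by unadjusted p, *Slc25a4*. DESeq2, fitted on all genes, also called *Slc25a25* by adjusted p and no other carrier. It gave no adjusted p for low carriers such as *Slc25a5*, *Slc25a22* and *Slc25a26*, which it could therefore not call. The calls of limma by adjusted p changed when *Eef1g*-cKO replicate 2 was left out, to 2 increased and 5 decreased, and when *Eef1g*-cKO replicate 1 was left out, to 0 increased and 2 decreased (*Slc25a5* and *Slc25a35*).

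The 29 carriers had a median log2 fold change of -0.11, beside -0.23 for all tested genes, with 13 above 0 and 16 below. With the 3 tested members that had no read in *Eef1g*-cKO set at the bound that 3 reads over both libraries allow, or at 0 where they allow no difference, the median was -0.0018. Centring each library on its own median moved log2 fold changes up by 0.21 and gave the carriers a median of 0.10. For 9 of the 29 the *Eef1g*-cKO values were both higher than any control value (31.0%, beside 24.6% of all tested genes), and for 8 they were both lower than any control value (27.6%, beside 37.7%). These shares were near those of all genes and mark nothing particular to the family.

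**Figure D2:**
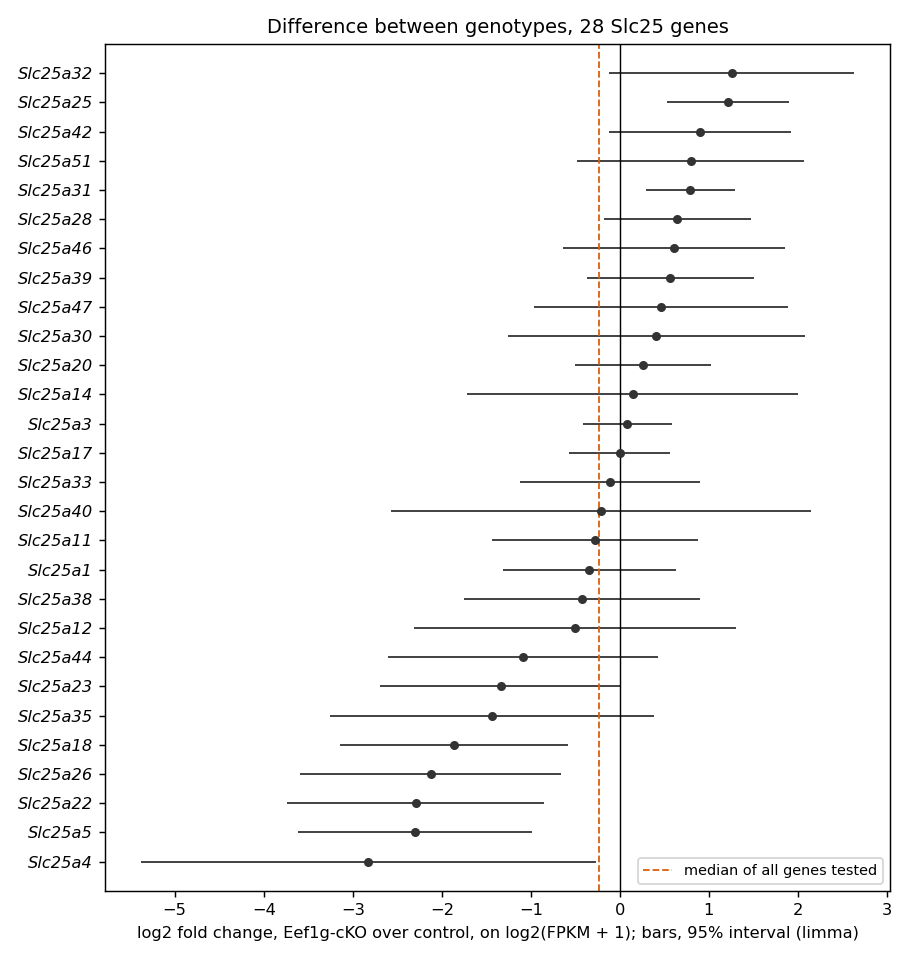
Log2 fold change of *Eef1g*-cKO over control for 28 of the Slc25 genes tested, on log2(FPKM + 1), with limma's 95% interval as bars and the median of all tested genes, -0.23, as the dashed line. The intervals of *Slc25a25* and *Slc25a31* lie above 0, those of *Slc25a4*, *Slc25a5*, *Slc25a18*, *Slc25a22* and *Slc25a26* below it, and the other 21 include it.

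The ADP/ATP carriers, which bring ATP out of mitochondria in exchange for ADP, lay on both sides of 0 in the comparison, the germ cell gene *Slc25a31* higher and the other 2 lower in *Eef1g*-cKO. *Slc25a31* lies at chr3:40708855-40726096 on the plus strand (GENCODE M21, GRCm38), *Slc25a5* at chrX:36795651-36798807 on the plus strand and *Slc25a4* at chr8:46206797-46211284 on the minus strand. A stretch of 39 coding bases around the signature motif of ADP/ATP carriers is shown to tell how far a read can distinguish them, with capitals at the bases that differ from *Slc25a31*. It lies at chr3:40722719-40724873 (exons 5 and 6 of *Slc25a31*, with the intron left out), chrX:36797828-36797866 (exon 3 of *Slc25a5*) and chr8:46208408-46208446 (exon 3 of *Slc25a4*).
Slc25a31: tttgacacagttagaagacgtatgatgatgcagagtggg
Slc25a5: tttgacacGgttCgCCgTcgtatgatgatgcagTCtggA
Slc25a4: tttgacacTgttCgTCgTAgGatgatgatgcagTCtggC
In this stretch *Slc25a5* differed from *Slc25a31* at 8 bases and *Slc25a4* at 10. Over the aligned coding sequence 66.6% of bases were identical between *Slc25a31* and either of the others, and 77.4% between *Slc25a5* and *Slc25a4*. No window of 28 bases, about the length of an RPF, was shared by any pair, so an exact read of that length belonged to 1 of the 3 genes.

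*Slc25a31* stood at 182 and 203 FPKM in the control libraries, beside 311 and 358 FPKM in the *Eef1g*-cKO libraries, from 952, 594, 147 and 308 reads. Both *Eef1g*-cKO libraries were above both control libraries. The means were 193 ± 15.1 and 334 ± 33.0 FPKM (SD, n = 2 each). The log2 fold change was 0.79 (standard error 0.20) and missed the adjusted p in limma (adjusted p = 0.0657). In edgeR it was 0.88 with an adjusted p of 0.00539, under the fold of the call rule. Without *Eef1g*-cKO replicate 2, edgeR gave 0.71 with an adjusted p of 0.217. Without *Eef1g*-cKO replicate 1 it gave 1.01 with an adjusted p of 0.0287, which met the rule. The summed FPKM of spermatocyte markers, and that of 4 of 7 markers of pachytene and later cells (425 and 322 in control, 1496 and 1389 in *Eef1g*-cKO), was higher in the same libraries. By limma log2 fold change, 9 of the 10 spermatocyte markers lay above 0 and 1 below. The 4 later markers were split, with 2 above 0 and 2 below, so their sum does not stand for each of them. The part of these markers in the result for *Slc25a31* was not tested.

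*Slc25a4* stood at 22.3 and 20.3 FPKM in control and at 0 and 8.89 FPKM in *Eef1g*-cKO, from 61, 31, 0 and 4 reads. Both *Eef1g*-cKO libraries lay below both control libraries. At the control rate 5.33 reads would have fallen in the first and 9.71 in the second. The log2 fold change was -2.82 (standard error 1.04, limma adjusted p = 0.135), which was -4.48 when *Eef1g*-cKO replicate 2 was left out and -1.17 when replicate 1 was. Over pooled reads the control rate was 3.76 times that of *Eef1g*-cKO (95% exact interval from counting error, 1.42 to 14.1), and edgeR gave -1.85 with an adjusted p of 0.0959.

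*Slc25a5* had 16 and 5 reads in control, or 5.21 and 2.92 FPKM, and no read in either *Eef1g*-cKO library. At the control rate 3.43 reads would have been found there. The exact interval of the control rate over that of *Eef1g*-cKO, which also holds the counting error of the control reads, began at 0.852, so a difference was not detectable at this depth. The limma log2 fold change of -2.30 (adjusted p = 0.0554) rests on the pseudocount of 1 FPKM and was -0.85 with a pseudocount of 5 FPKM. *Slc25a5* also had the most repeated coding sequence of the family. Of its 28-base windows 87.9% had an exact copy elsewhere in GRCm38, at 12 loci and in 13 annotated pseudogenes. The window below, from exon 2 at chrX:36797000-36797027 (plus strand), is shown because it had 9 such copies, the most of any.
Slc25a5 exon 2 window: ccttcaaagataaatacaagcagatctt
How reads with several matches were treated is not given in the sources used here, so the low level of *Slc25a5* is uncertain in both genotypes. Spermatogonia and Sertoli cell markers were lower in *Eef1g*-cKO than in control as given above, and their part in the values of *Slc25a4* and *Slc25a5* was not tested.

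Among reads of the 3 ADP/ATP carriers, *Slc25a31* held 92.5% (952 of 1029 reads, 95% exact binomial interval 90.7 to 94.0) and 94.3% (594 of 630, 92.2 to 96.0) in control. It held 100% (147 of 147, 97.5 to 100) and 98.7% (308 of 312, 96.8 to 99.6) in *Eef1g*-cKO. The germ cell carrier thus held most of the counted ADP/ATP carrier reads in every library. Its share was higher in both *Eef1g*-cKO libraries, with intervals that did not overlap those of control. These are shares of RPF reads, not of protein. They take the reads of *Slc25a5* as counted, and its level is uncertain because of the copies elsewhere, which the intervals do not cover. The 3 genes together took 415 and 455 reads per 1000000 in control, beside 657 and 765 in *Eef1g*-cKO.

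*Slc25a25* was the only carrier that passed the adjusted p in edgeR together with the fold. It encodes SCaMC-2, 1 of the calcium-sensitive carriers that load ATP-Mg into mitochondria against phosphate. Its FPKM was 12.5 and 15.5 in control, beside 36.9 and 30.7 in *Eef1g*-cKO, from 131, 91, 35 and 53 reads, and the genotypes did not overlap. It rose by edgeR's adjusted p, with a log2 fold change of 1.34 (adjusted p = 0.00221), and held this call with each library left out in turn (1.16 to 1.43, adjusted p from 3.77e-06 to 0.0289). In limma the change was 1.22 (standard error 0.28, 95% interval 0.53 to 1.91), with an adjusted p of 0.0552. Over pooled reads the rate in *Eef1g*-cKO was 2.42 times that of control (95% exact interval 1.87 to 3.12). *Slc25a25* lies at chr2:32414487-32451445 on the minus strand, and none of its 28-base coding windows had a copy elsewhere.

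Its 2 paralogs in the table were at low levels. *Slc25a23* had 19, 11, 0 and 1 reads (control 1 and 2, *Eef1g*-cKO 1 and 2) and *Slc25a24* had 16, 3, 0 and 2. *Slc25a25* accounted for 78.9% and 86.7% of the reads of the 3 genes in control and for 100% and 94.6% in *Eef1g*-cKO. Their exact binomial intervals, 71.9 to 84.9 and 78.6 to 92.5 in control, and 90.0 to 100 and 85.1 to 98.9 in *Eef1g*-cKO, overlapped between genotypes.

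*Slc25a3* and *Slc25a17*, next to *Slc25a31* in level, overlapped between genotypes. *Slc25a3*, which brings in the phosphate for ATP synthesis, stood at 133 and 149 FPKM in control, beside 139 and 160 in *Eef1g*-cKO. Its log2 fold change was 0.09 with a 95% interval of -0.41 to 0.58 (limma adjusted p = 0.797). *Slc25a17* stood at 68.7 and 52.9 FPKM in control, beside 61.6 and 58.8 in *Eef1g*-cKO, a log2 fold change of -0.0018 with an interval of -0.57 to 0.57 (limma adjusted p = 0.996). *Slc25a3* shared 11.8% of its coding windows with other loci.

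Among the remaining carriers of nucleotides and cofactors, *Slc25a26*, which brings S-adenosylmethionine into mitochondria, had 23 and 17 reads in control, beside 0 and 1 in *Eef1g*-cKO. Its log2 fold change was -2.12 (limma adjusted p = 0.0788), and the pooled control rate was 6.54 times that of *Eef1g*-cKO with a counting interval of 1.11 to 265. The folate and FAD carrier *Slc25a32* stood at 7.81 and 3.19 FPKM in control, beside 19.7 and 9.16 in *Eef1g*-cKO, and the coenzyme A carrier *Slc25a42* at 5.47 and 7.74 FPKM in control, beside 16.9 and 10.0 in *Eef1g*-cKO. Both were higher in both *Eef1g*-cKO libraries, with log2 fold changes of 1.26 (95% interval -0.12 to 2.63) and 0.90 (-0.12 to 1.93) and limma adjusted p-values of 0.192 and 0.205. In edgeR their adjusted p-values were 0.0998 and 0.125. In the class of nucleotide, cofactor and phosphate carriers as a whole, 6 of 13 tested genes lay above 0 and 7 below.

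The 5 amino acid carriers tested had log2 fold changes from -2.30 to -0.42, beside the median of -0.23 for all tested genes. For 4 of them, *Slc25a12*, *Slc25a18*, *Slc25a22* and *Slc25a44*, a value below 0 was largely fixed by the filter, since they passed it only through control, so their common direction is a description. By limma, 0 of the 5 were called decreased by adjusted p (4.97% of all tested genes) and 2 by unadjusted p (16.3%). These were the mitochondrial glutamate carriers. *Slc25a22* (GC1) had 17 and 24 reads in control and none in *Eef1g*-cKO, where 6.71 would have been found at the control rate, and the exact interval of the control rate over that of *Eef1g*-cKO began at 1.74. *Slc25a18* (GC2) had 11 and 4 reads in control and none in *Eef1g*-cKO, where only 2.45 would have been found, so no ratio of rates is given. Their limma log2 fold changes were -2.30 (adjusted p = 0.0651) and -1.86 (adjusted p = 0.0783). These rest on the pseudocount of 1 FPKM and were -0.86 and -0.62 with a pseudocount of 5 FPKM.

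The aspartate/glutamate carriers, which take part in the malate-aspartate shuttle, were near the limit of detection. *Slc25a12* (aralar) had 4 and 10 reads in control, beside 0 and 2 in *Eef1g*-cKO, with overlapping FPKM, and a pooled control rate of 1.14 times that of *Eef1g*-cKO (95% exact interval 0.263 to 10.4). Its log2 fold change of -0.50 was 0.08 without control replicate 2 and 0.21 without *Eef1g*-cKO replicate 1. *Slc25a13* (citrin) had 12 and 7 reads in control and none in *Eef1g*-cKO, where 3.11 would have been found. The exact interval of the ratio began at 0.763, so a difference was not detectable at this depth. *Slc25a44*, a carrier of branched-chain amino acids, had 19, 12, 0 and 2 reads, and *Slc25a38*, which supplies glycine for haem synthesis, had 23, 17, 1 and 5, with overlapping FPKM.

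Of the carriers of iron and glutathione, *Slc25a28* stood at 30.0 and 27.3 FPKM in control, beside 61.1 and 33.6 in *Eef1g*-cKO, a log2 fold change of 0.65 with an interval of -0.18 to 1.47 (limma adjusted p = 0.247). It rested on *Eef1g*-cKO replicate 1, without which it was 0.22. Without *Eef1g*-cKO replicate 2 it was 1.07. The glutathione carrier *Slc25a39* stood at 7.52 and 13.5 FPKM in control, beside 16.1 and 14.7 in *Eef1g*-cKO, a log2 fold change of 0.56 (limma adjusted p = 0.356). Carboxylic acid and acyl carriers had small differences: 3 tested genes, the citrate carrier *Slc25a1*, the oxoglutarate carrier *Slc25a11* and the carnitine carrier *Slc25a20*, ran from -0.34 to 0.26 on the log2 scale. The uncoupling-type carriers *Slc25a14* and *Slc25a30* had 0.14 and 0.41. *Slc25a46*, an outer membrane member that acts in mitochondrial dynamics, had 0.61 with an interval of -0.63 to 1.86. *Slc25a35* and *Slc25a47*, whose substrates are not settled, had -1.44 and 0.46.

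**Figure D3:**
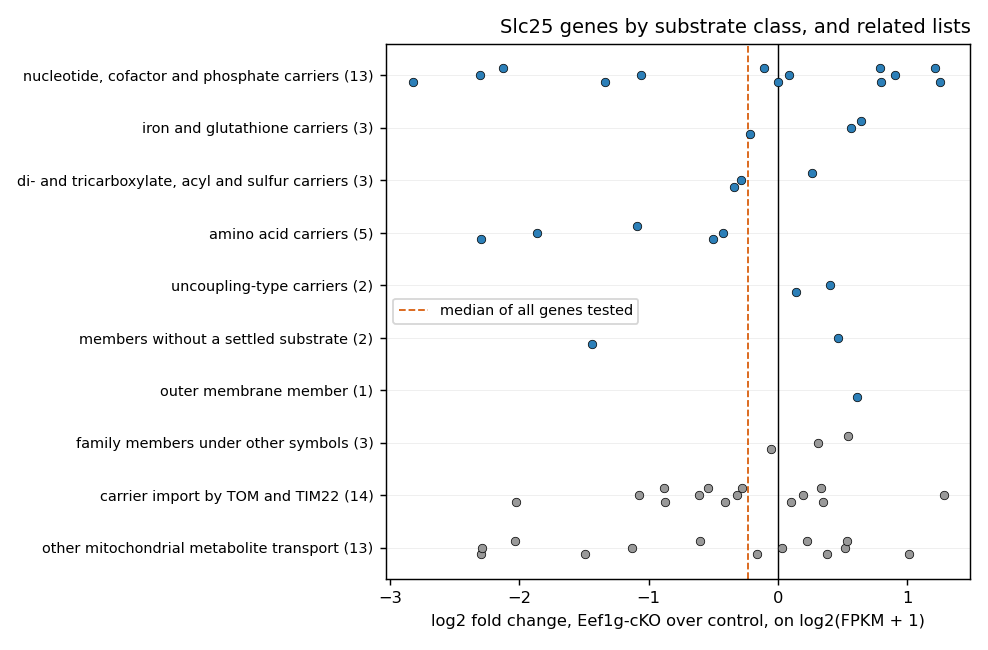
Log2 fold change of *Eef1g*-cKO over control on log2(FPKM + 1), 1 point a tested gene, for the Slc25 genes by substrate class (blue) and for 3 related lists (grey), with the number of genes in brackets and the median of all tested genes as the dashed line. The 13 nucleotide, cofactor and phosphate carriers spread from -2.82 to 1.26, and the 5 amino acid carriers, 4 of which passed the filter only through control, from -2.30 to -0.42.

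The depth of the *Eef1g*-cKO libraries set how much of the family could be compared. Over both of them, 15 of the 35 carriers had at most 3 reads and 5 had none, *Slc25a5*, *Slc25a13*, *Slc25a18*, *Slc25a22* and *Slc25a36*. At the control rate these 15 would have had between 1.64 and 6.71 reads each. Only 13 carriers had an expected count of at least 10. The 20 carriers with more than 3 reads in *Eef1g*-cKO had a median log2 fold change of 0.20, with 12 above 0 and 8 below, beside a median of -0.02 in the 8406 tested genes with as many reads. That choice uses the *Eef1g*-cKO reads and leaves out low values on that side only, so these medians are a description.

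**Figure D4:**
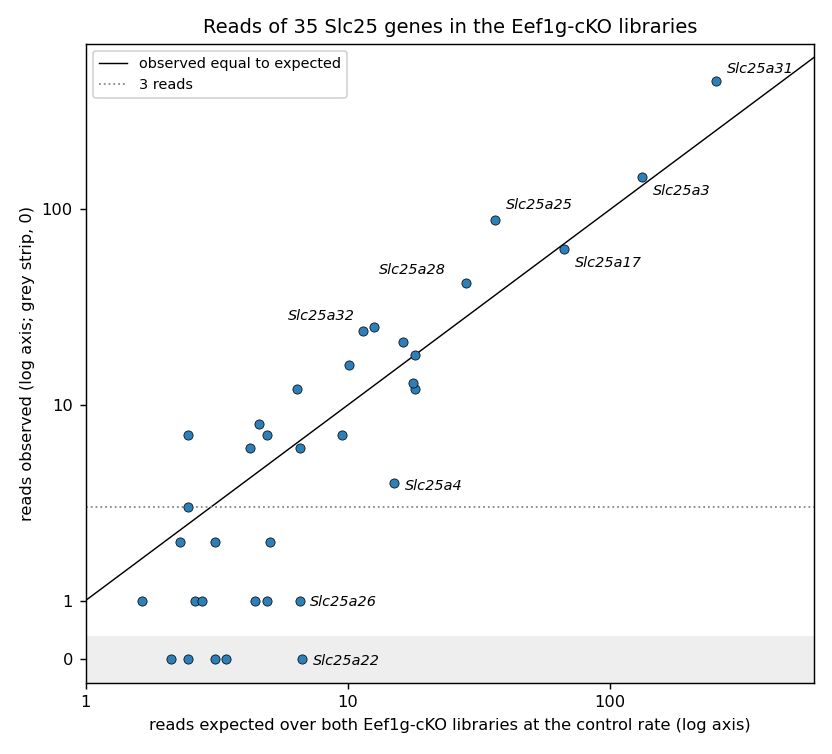
Reads observed over both *Eef1g*-cKO libraries (vertical axis, log, with 0 in the grey strip) against the reads expected at the control rate (horizontal axis, log) for the 35 Slc25 genes, with the line of equality and a dotted line at 3 reads. *Slc25a31* and *Slc25a25* lie above the line with 455 and 88 reads where 253 and 36.3 were expected, *Slc25a4* lies below it with 4 where 15.1 were expected, and 15 genes lie at or under 3 reads.

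Coding length and base composition are features that the choice of members did not use, and only length set a group of carriers apart. The 5 carriers with a calcium-binding part in front of the carrier domain, *Slc25a12*, *Slc25a13*, *Slc25a23*, *Slc25a24* and *Slc25a25*, had coding sequences of 1401 to 2031 bases, and the other carriers 822 to 1254. The share of G or C at the last position of a codon was 49.1% in *Slc25a31* and 73.5% in *Slc25a25*, the pair of carriers whose limma intervals lay above 0, beside a median of 65.7% in the 29 tested carriers and 60.2% in all tested genes with a coding sequence. Copies elsewhere in the genome covered 81.5% of the coding windows of *Slc25a36*, 41.4% of *Slc25a40*, 21.2% of *Slc25a37*, 16.2% of *Slc25a51* and 0.75% of *Slc25a13*, and 28 carriers had none.

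Genes that bring carriers into mitochondria were followed as a list of 14 genes in the table. *Tomm70a*, the TOM receptor that binds carrier precursors, was the only one called increased by limma's adjusted p (2.87% of all tested genes). It stood at 32.6 and 29.6 FPKM in control, beside 74.5 and 79.8 in *Eef1g*-cKO, with no overlap, and rose by 1.28 on the log2 scale (standard error 0.22, limma adjusted p = 0.0352; edgeR 1.39, adjusted p = 2.89e-04). In limma the call was lost without control replicate 1 (1.35, adjusted p = 0.142) or without control replicate 2 (1.22, adjusted p = 0.166), while edgeR kept it with any library left out. The median log2 fold change of the list was -0.36, beside -0.23 for all tested genes, with 5 genes above 0 and 9 below. Of the 9, *Tomm5*, with no read in *Eef1g*-cKO, passed the filter only through its control values. Both *Eef1g*-cKO libraries lay below both control libraries for 6 of the 14, beside 37.7% of all tested genes, a share near that of all genes. Among these 6, the small TIM chaperones *Timm8b* and *Timm13* had -1.07 (limma adjusted p = 0.104) and -0.88 (limma adjusted p = 0.0840). The small TIM chaperones did not share 1 direction. *Timm10*, also among the 6, had -0.61 (limma adjusted p = 0.239). *Timm10b* and *Timm9*, which were not, had -0.28 (limma adjusted p = 0.675) and 0.19 (limma adjusted p = 0.751). *Timm22*, the channel that inserts carriers, had -0.41 (limma adjusted p = 0.508) and *Tomm40*, the outer membrane channel, 0.33 (limma adjusted p = 0.632).

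Of 13 genes for other mitochondrial transport, limma called 0 by adjusted p in either direction. By unadjusted p it called 1 increased (7.32% of all tested genes) and 3 decreased (16.3%). The 3, *Vdac1*, *Vdac3* and *Tspo*, had *Eef1g*-cKO means under 1 FPKM, as had *Sfxn3* and *Sfxn4*. All of these passed the filter only through their control values, which favours changes below 0 among them. The median log2 fold change of the list was -0.16, beside -0.23 for all tested genes. *Micu2*, a calcium sensor of the mitochondrial calcium uniporter, stood at 72.8 and 74.4 FPKM in control, beside 184 and 122 in *Eef1g*-cKO, with no overlap. Its log2 fold change was 1.01 in limma (adjusted p = 0.0647) and 1.10 in edgeR, which called it increased (adjusted p = 0.00226). Without *Eef1g*-cKO replicate 1 edgeR gave 0.85 and no call (adjusted p = 0.0925). *Vdac2*, the most abundant of the outer membrane porins here, stood at 57.8 and 48.2 FPKM in control, beside 45.7 and 48.7 in *Eef1g*-cKO, a log2 fold change of -0.16 (limma adjusted p = 0.656). *Vdac1* had 27 and 17 reads in control, beside 0 and 1 in *Eef1g*-cKO, and *Vdac3* had 16 and 4 and then none. Family members under other symbols, *Ucp2*, *Mtch1* and *Mtch2*, had log2 fold changes of 0.54, -0.06 and 0.31, with 0 calls by limma's adjusted or unadjusted p. Of these edgeR tested only *Mtch2*, which it did not call (adjusted p = 0.607).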

How the data were processed

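RPFs of FACS-sorted leptotene/zygotene spermatocytes from 12 dpp testes were measured in 2 control and 2 *Eef1g*-cKO libraries, grouped by the labels. The authors deposited 1 table of 11598 genes. Its FPKM values, per the file headers, were computed by the authors from gene length and reads counted on genes. Its deposited normalized counts are a signal scaled by 1 size factor for each library, and 100% of them were whole multiples of the value of 1 read (tolerance 0.01), which gave back the reads. The authors' mean count, log2 fold change, standard error, statistic, p-value and adjusted p are also in the table and were not used. The submitters' processing notes list cutadapt, Bowtie and STAR, and the builds mm10 and hg38, without giving roles. The paper's methods name RiboMiner with default settings. The counter, the annotation and the handling of reads with several matches are not given in the sources used here.

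Depth was 2479504 and 1384282 reads in control, beside 223906 and 407979 in *Eef1g*-cKO, with a median of 60, 34, 5 and 8 reads a gene, so counting error was largest in *Eef1g*-cKO. FPKM are not counts, so limma 3.58.1 (R 4.3.3) with a trended prior variance on log2(FPKM + 1) was the main test, fitted on the 10475 genes that averaged 1 FPKM or more. A fold change on this scale understates the change of low genes. The recovered reads were tested with edgeR 4.0.16 (TMM, quasi-likelihood) and DESeq2 1.42.0 as alternatives. Other alternatives were the pseudocount, the filter, median centring, no variance trend, a replicate block and leaving out each library, also in edgeR, which was added after seeing the data. The main limma fit and the edgeR and DESeq2 fits were tested on simulated data, and the other alternatives were not. Changes in genes with few reads were not tested there. The members, gene lists and tests were chosen with earlier results of these data known.

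Named carriers were those called by limma's unadjusted p or edgeR's adjusted p, the 5 highest in control, the ADP/ATP, phosphate and aspartate/glutamate carriers. The rest were given by substrate class, where *Slc25a32* and others were named after their values were seen. The values of 1 carrier are not reported here, though it is counted in totals. Exact intervals (Clopper-Pearson) and a floor of 3 reads over both libraries for a count of 0 cover counting error only. Coding sequences came from GENCODE M21 on GRCm38. Python 3.11.15 with numpy 2.4.6, pandas 2.3.3, scipy 1.17.1 and matplotlib 3.10.9 was used.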

Additional observations from a re-analysis of the deposited data

How the results depend on the processing

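By adjusted p, increased carriers numbered 0 in limma as reported. They numbered 1 (*Slc25a25*) with a pseudocount of 5 FPKM, with a minimum mean of 5 FPKM, in edgeR with and without its filter and in DESeq2. With median centring, which gives every library the same median, they numbered 2 (*Slc25a25* and *Slc25a31*). Decreased carriers numbered 0 as reported and 1 (*Slc25a4*, adjusted p = 0.0488) with the replicate block. By unadjusted p, increased carriers numbered 1 as reported, 4 with median centring, 3 in edgeR with and without its filter and 2 with the replicate block. Decreased carriers numbered 5 as reported, 1 with a pseudocount of 5 FPKM, with a minimum mean of 5 FPKM, in edgeR and in DESeq2, and 2 in edgeR without its filter. The median log2 fold change of the carriers was -0.11 as reported and 0.30 over the 16 carriers that edgeR tested, since its filter removes low genes. With 1 library left out, increased carriers ranged from 0 to 2 and decreased from 0 to 5 by adjusted p, and from 1 to 5 and from 3 to 8 by unadjusted p, and the median from -0.48 to 0.19. The highest counts and the lowest median came without *Eef1g*-cKO replicate 2. Without *Eef1g*-cKO replicate 1 the adjusted counts were 0 and 2 and the median 0.19. Without either control library 3 carriers were decreased by unadjusted p. The lone library left in a genotype was assumed to vary like the other pair. Replicate numbers did not pair the libraries (correlation of deviations from the genotype means -0.0080 over 10475 genes), so the block is given only here.

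Of 197 values of single genes under alternatives (11 carriers, *Eef1g*, *Tomm70a* and *Micu2*), 156 kept direction and call, 27 gained a call, 5 lost one and 9 turned direction. The losses were in *Tomm70a* (limma with a pseudocount of 0.1 FPKM, without a variance trend or without either control library, lowest and highest adjusted p among these 0.0540 and 0.166) and *Micu2* (edgeR without *Eef1g*-cKO replicate 1). The turns were in *Slc25a17* (0.21 with median centring, 0.0465 in edgeR, 0.0476 in edgeR without its filter, 0.0383 in DESeq2, and -0.19 to 0.18 with 1 library left out), *Slc25a12* (-0.50 as reported, -1.21 to 0.21 with 1 library left out) and *Slc25a3* (-0.0185 to 0.19 with 1 library left out). DESeq2 gave no adjusted p for the low genes *Slc25a5*, *Slc25a12*, *Slc25a18*, *Slc25a22* and *Slc25a26*. Depth limits the comparison most where at most 3 reads were found in *Eef1g*-cKO.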
